A study of Bos taurus with 8 samples.

Results

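The genes described here are 9 markers of the hypoblast and primitive endoderm in cattle: the transcription factors GATA4, GATA6, SOX17 and HNF4A, the receptor PDGFRA, the secreted proteins AFP, TTR and APOE, and the WNT agonist RSPO3. They were followed line by line in cultures of bovine stem-like cells grown from embryos (eSLCs) and in somatic cells (SCs). A gene was taken as measured where the RefSeq accession of a probe matched the gene. By this rule 8 of the 9 genes had a named probe, with 25 probes in all, out of 12603 genes named on the arrays, and GATA6 was not analysed here because no probe matched it.

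RNA of 8 samples was hybridized with 1 dye to Agilent bovine oligo microarrays, 1 array per sample. All cells came from HanWoo, a Korean native cattle breed. The eSLCs grew out as colonies from blastocysts of 3 origins: in vitro produced embryos (IVP; line I2 at passage 35 and I9 at passage 30), somatic cell nuclear transfer embryos (NT; N2 at passage 36 and N7 at passage 30) and parthenogenetic embryos (PA; P1 at passage 31 and P4 at passage 36). All 6 eSLC lines were kept in medium with PD184352, SU5402 and CHIR99021, inhibitors of MEK, FGF receptors and GSK3, on inactivated murine STO feeder cells, whereas the SCs, measured at passages 5 and 10, grew in serum medium without these inhibitors. The labels do not give the tissue of the SCs, and the methods name ear skin as the source of the NT donor cells. Culture medium and cell type therefore differ together between eSLCs and SCs and cannot be told apart.

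The hypoblast is the epithelium that forms on the inner face of the inner cell mass in the blastocyst and goes on to line the yolk sac. In the mouse, where it is called primitive endoderm, FGF signaling through MEK directs inner cell mass cells to this fate, GATA6 acts early, and SOX17, GATA4 and HNF4A follow as the epithelium matures. PDGFRA marks these cells from early on, and mature yolk sac endoderm secretes AFP, TTR and apolipoproteins much as liver does.

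Signals below are background-subtracted and scaled so that the 75th percentile of each array is 1000. A probe counts as detected where the scanner software marked it well above background, and detection ended at a signal between 7.34 and 13.3, depending on the array. Where a gene had several probes, its brightest probe, by mean log2 signal, represents it in the tests. Differences were tested with limma over all 8 arrays with Benjamini-Hochberg adjustment over 10958 genes, and a gene was called at an adjusted p under 0.05 and at least 2-fold. Each condition had 2 arrays, which limits the precision. The labels do not show that the SC arrays came from separate cultures, so the p-values measure only the spread between these samples. In bulk RNA, fewer cells of a type and less RNA per cell cannot be told apart.

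The arrays were of similar quality, with 71.2% to 76.7% of spots well above background and no saturated spot. Slide 1 carried SC P5 with lines I2, I9 and N7, and slide 2 carried SC P10 with lines N2, P1 and P4. Trophectoderm markers were a large component of every eSLC line, with 8 of 9 markers higher than in SCs. CDX2, a defining trophectoderm factor, read 5183 to 14887 in eSLCs and was not detected in SCs. The summed trophectoderm signal was 421083 in N7, 634551 to 1248450 in the other 5 lines and 13132 to 13528 in SCs. Fibroblast markers were lower in eSLCs for 9 of 10 genes, and their summed signal was 5546 to 10739 in eSLCs, with N7 at 5555, and 655489 to 811850 in SCs. Among epiblast markers, LIN28A rose by 4.28 on the log2 scale (SE 0.182, adjusted p = 2.46e-05), SOX2 fell by 2.91 (SE 0.327, adjusted p = 0.00101), and NANOG was dim, at 16.8 to 35.4 on the 5 eSLC arrays that detected it.

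Of the 8 marker genes, 3 were called lower in eSLCs than in SCs (TTR, PDGFRA and RSPO3) and 0 were called higher. Across all genes tested, 15.7% were called lower and 19.7% higher. By origin, 3 of the 8 were called lower in IVP-eSLCs, 2 in NT-eSLCs and 3 in PA-eSLCs, beside 14.6%, 13.9% and 14.9% of all genes, and 0 were called higher, beside 17.7%, 15.8% and 20.3%. The 3 origins were set against the same SC arrays. The median log2 difference, eSLCs minus SCs, was -0.07 over the 8 markers and 0.23 over all genes. The markers did not move as a group. TTR was uniformly low in all 6 eSLC lines. PDGFRA and RSPO3 were low in 5 lines and intermediate in N7. GATA4, HNF4A and 1 of the 2 SOX17 probes were brightest in N7. APOE was bright on every array, and AFP was at the detection limit or just above it.

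**Figure D1:**
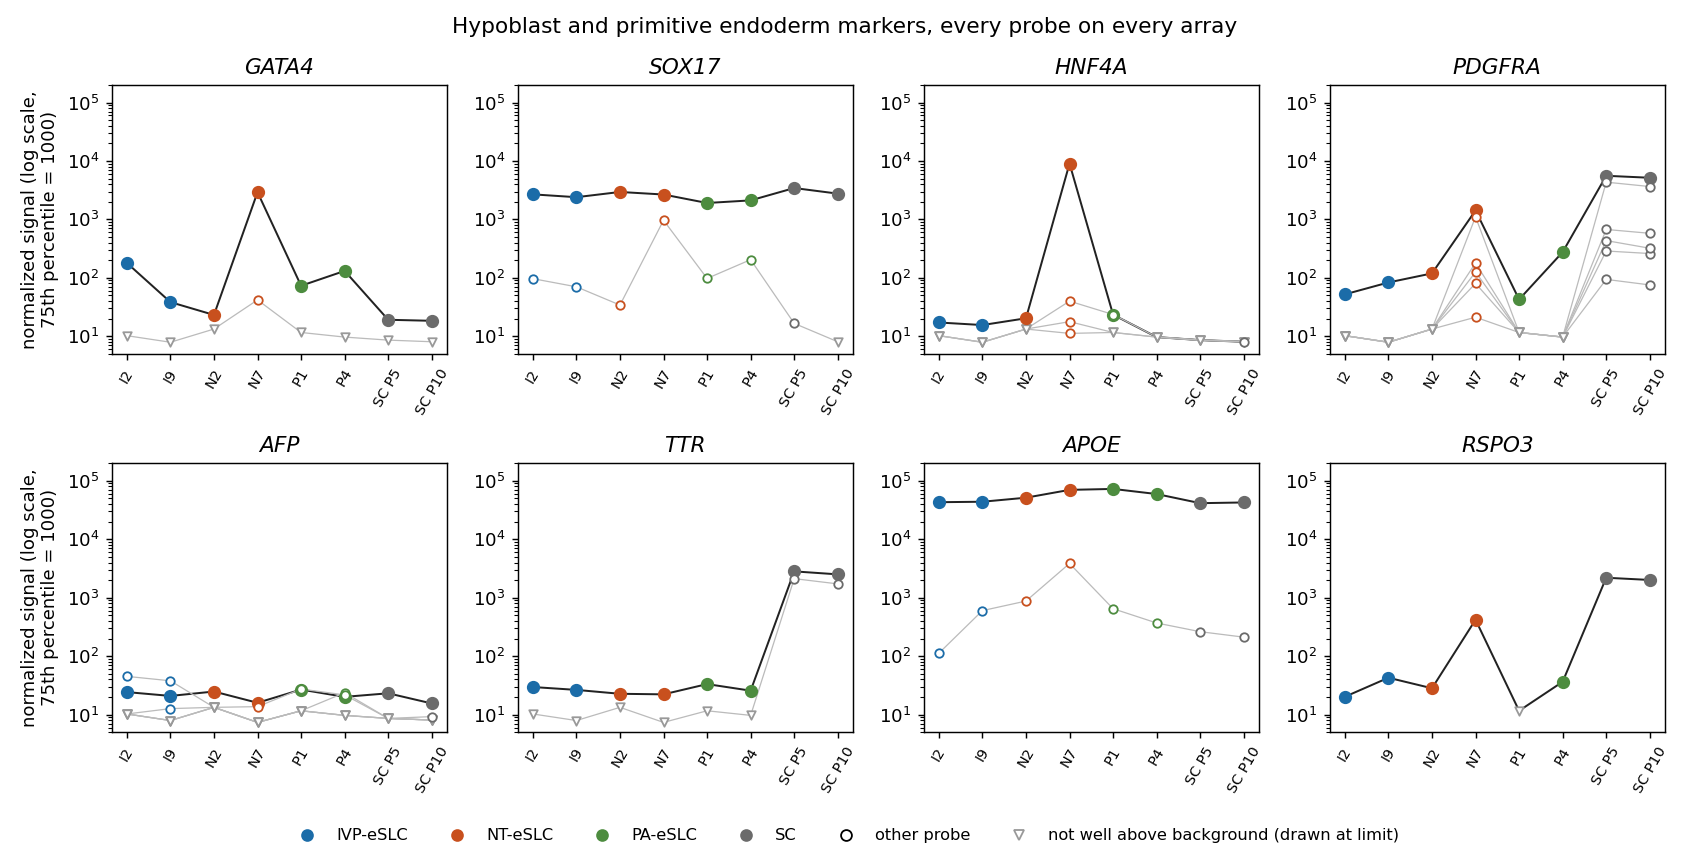
Normalized signal (log scale, 75th percentile of the array = 1000) of every probe of the 8 markers on the 6 eSLC arrays and 2 SC arrays. Large filled points joined by the dark line are the probe that represents the gene, open points are its other probes, and triangles are probes not well above background, drawn at the lowest detected signal of that array. N7 stands above the other eSLC lines for GATA4 (2918), HNF4A (9022), PDGFRA (1422) and RSPO3 (420).

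GATA4 is a zinc finger factor that drives extraembryonic endoderm gene expression. Its brighter probe (A_73_120607) read 180 in I2, 38.4 in I9, 23.1 in N2, 2918 in N7, 73.1 in P1 and 131 in P4, against 19.1 and 18.4 in SCs at passages 5 and 10. All 6 eSLC arrays were above both SC arrays, as were 34.0% of all genes, and N7 was 16.2-fold above the next line, I2. Levels of the other eSLC lines were themselves spread from 23.1 to 180, with N2 close to the SCs. The second probe (A_73_P085826) was detected in N7 alone, at 41.9, at least 3.15-fold above the detection limit of every other eSLC array. The difference between eSLCs and SCs, 2.78 on the log2 scale (SE 1.75), did not pass the test (limma, adjusted p = 0.236). Without N2 the difference was 3.94, but the NT condition then rested on N7 alone and the spread between N2 and N7 was left out. Within slide 1 the eSLCs were 3.83 higher than the SC array, and within slide 2 they were 1.72 higher.

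HNF4A, a nuclear receptor of visceral endoderm and liver, had the widest gap between lines. Its brightest probe (A_73_109651) read 17.2 in I2, 15.5 in I9, 20.3 in N2, 9022 in N7 and 23.4 in P1. It was not detected in P4 or in either SC array. N7 was 386-fold above the next line, P1, and at least 1085-fold above the mean detection limit of the SC arrays on the log2 scale, while the other 4 lines that detected the gene lay close to the detection limit. The remaining 3 probes were dim and read 39.9, 17.8 and 11.2 in N7, the last below the detection limit of other eSLC arrays. P1 was the only other eSLC line detected on any of these, at 23.5 on the first. The second was also detected in SC P10, at 8.1, near the detection limit. The mean difference between eSLCs and SCs was 1.91 (SE 2.09, adjusted p = 0.483) and did not pass the test. Without N2 it was 3.53, again with the NT condition resting on N7 alone. With all lines the difference was 3.34 within slide 1, which holds N7, and 0.48 within slide 2.

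SOX17, an SRY-box factor of primitive and definitive endoderm, gave different pictures on its 2 probes. The brighter probe (A_73_P072866) read 2681 in I2, 2397 in I9, 2946 in N2, 2664 in N7, 1908 in P1 and 2114 in P4, and 3439 and 2758 in SCs. It was flat, and the groups overlapped. The difference of -0.34 (SE 0.164, adjusted p = 0.134) was not called. The dimmer probe (A_73_110940) read 96.7, 70.1, 34.2, 966, 97.6 and 204 in I2, I9, N2, N7, P1 and P4, and 16.6 in SCs at passage 5, and it was not detected at passage 10. On this probe N7 was again the brightest, 4.72-fold above P4. Every eSLC array was above both SC arrays, as was the case for 34.0% of all genes. Fitted on its own, the probe differed by 3.11 (SE 1.20, adjusted p = 0.0811), which did not pass the test. The files do not say which of the probes reports the transcript, and no direction for SOX17 is given.

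PDGFRA, the receptor for PDGF, is a marker of primitive endoderm and is also expressed by fibroblasts. Its brightest probe (A_73_P335221) read 52.1 in I2, 83.3 in I9, 119 in N2, 1422 in N7, 42.6 in P1 and 276 in P4, and 5575 and 5155 in SCs. N7 was 5.16-fold above the next line, P4, and the SCs were 3.77-fold above N7. All 5 other probes were detected in N7 and both SC arrays and on no other array. On the brightest of these (A_73_104923) N7 read 1106 and the SCs 4337 and 3648, which put N7 at least 83.2-fold above the highest detection limit of the 5 other lines. The SC mean was at least 383-fold above the mean of these limits on the log2 scale. Over the 6 probes the ratio of SCs to N7 stayed between 2.98 and 3.98. PDGFRA thus had the same order on every probe: SCs, then N7, then the other eSLC lines.

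PDGFRA fell by 5.23 on the log2 scale in eSLCs against SCs (SE 1.08, adjusted p = 0.0102), and each of its 6 probes was called lower on its own. Within slides the difference was -4.93 and -5.53. The call was lost without SC P5 (-5.17, adjusted p = 0.106) and without SC P10 (-5.28, adjusted p = 0.0975), with the SCs then represented by a single array. By origin, the difference was -6.35 in IVP-eSLCs (adjusted p = 0.0134) and -5.63 in PA-eSLCs (adjusted p = 0.0187), both called. In NT-eSLCs the difference was -3.70 (SE 1.32, adjusted p = 0.0775) and was not called. Without N7 it was -5.49 and was called (adjusted p = 0.0259), and so was the mean of the gene's probes, at -3.50 (adjusted p = 0.0419). With the slide as a block the PA difference was -4.71 and was not called (adjusted p = 0.0528). The IVP call was lost without I2 (adjusted p = 0.0874) or I9 (adjusted p = 0.0564), and the PA call without P1 (-4.28, adjusted p = 0.106) and with the methods' t-test (adjusted p = 0.120). Both were also lost without SC P5 (-6.29 and -5.57) or SC P10 (-6.40 and -5.68). Summed fibroblast markers moved the same way between eSLCs and SCs, but not in N7, which was at 5555, near the lowest eSLC line at 5546. Their part in the SC signal of PDGFRA was not tested.

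RSPO3, a secreted protein that amplifies WNT signaling by binding LGR receptors, had 1 probe (A_73_119468). It read 20.1 in I2, 42.7 in I9, 28.2 in N2, 420 in N7 and 36.4 in P4, was not detected in P1, and read 2195 and 2011 in SCs. The order of the groups matched that of PDGFRA, with N7 9.84-fold above the next line, I9, and the SCs 5.01-fold above N7. RSPO3 fell by 5.67 in eSLCs (SE 1.03, adjusted p = 0.00624), and the difference was -4.95 within slide 1 and -6.40 within slide 2. As for PDGFRA, the call was lost without SC P5 (-5.61, adjusted p = 0.0807) or SC P10 (-5.73, adjusted p = 0.0736).

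All 3 origins were called lower for RSPO3, with differences of -6.16 in IVP-eSLCs (adjusted p = 0.0124), -4.27 in NT-eSLCs (adjusted p = 0.0442) and -6.58 in PA-eSLCs (adjusted p = 0.00925). The NT call was close to the threshold. It was lost on leaving out any array but N7, with an adjusted p of 0.0775 without I9, 0.0872 without I2, 0.0808 without P1, 0.0943 without P4, 0.106 without N2, 0.206 without SC P5 and 0.186 without SC P10. The IVP call was also lost without I2 (-5.62, adjusted p = 0.0861), without SC P5 (adjusted p = 0.0964) and without SC P10 (adjusted p = 0.0922). The PA call was lost without P1 (-5.85, adjusted p = 0.0686), without SC P5 (adjusted p = 0.0816) and without SC P10 (adjusted p = 0.0739). With the methods' t-test the adjusted p was 0.0597 for IVP- and 0.0575 for PA-eSLCs.

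TTR, the carrier of thyroid hormone and of retinol-binding protein, differed between the cell types with little spread within either. Its brighter probe (A_73_100760) read 29.6 in I2, 26.4 in I9, 22.7 in N2, 22.2 in N7, 33.2 in P1 and 25.6 in P4. SCs read 2820 and 2507, 101-fold the eSLC mean. N7 was the dimmest eSLC array here, and all 6 eSLC arrays lay far below both SC arrays. Every eSLC array was below both SC arrays for 23.6% of all genes. The second probe (A_73_P459931) was detected on no eSLC array and read 2118 and 1722 in SCs, a mean at least 195-fold above the mean detection limit of the eSLC arrays on the log2 scale. TTR fell by 6.66 (SE 0.168, adjusted p = 5.39e-06). The differences by origin were -6.57 in IVP-, -6.89 in NT- and -6.51 in PA-eSLCs (adjusted p = 1.85e-05, 1.79e-05 and 1.86e-05), and within slides 1 and 2 they were -6.77 and -6.55.

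APOE, a lipid carrier made by yolk sac endoderm and by many other cells, was bright in both cell types. The brighter probe (A_73_P038086) read 43063 in I2, 43858 in I9, 51431 in N2, 70003 in N7, 72668 in P1 and 59406 in P4, and 41442 and 42626 in SCs. All eSLC arrays were above both SC arrays, as for 34.0% of all genes, with I2 and I9 only slightly so. The difference of 0.40 (SE 0.182, adjusted p = 0.120) did not pass the test. On the dimmer probe (A_73_P254587) the lines were further apart, at 112, 601, 875, 3852, 647 and 369 in I2, I9, N2, N7, P1 and P4, against 262 and 211 in SCs. There N7 was 4.40-fold above N2, while I2 was below both SC arrays.

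AFP, the main serum protein of the yolk sac and fetal liver, was at most faintly detected. Its representative probe (A_73_P512978) lay between 15.5 and 26.7 on all 8 arrays, and its difference of 0.20 (SE 0.267, adjusted p = 0.557) was not called. Of the other 5 probes, 3 were detected on no array. A_73_P304661 was detected in I2 (45.0), I9 (37.8) and P4 (23.6), and on this probe alone the difference between IVP-eSLCs and SCs was called, at 1.64 (adjusted p = 0.0089). A_73_P359421 read between 12.6 and 27.3 on the 4 eSLC arrays that detected it. N7, the brightest line for GATA4 and HNF4A, detected 2 of the 6 AFP probes, at 15.9 and 13.7, and was the brightest line on neither.

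The eSLC lines were then compared with each other. N7 was at least 2-fold above every other eSLC array for 4 of the 8 genes (GATA4, HNF4A, PDGFRA and RSPO3). SOX17 and APOE met this criterion on their dimmer probe only. Of the 25 probes, 21 were detected on an eSLC array and 11 met the criterion, several of them probes of PDGFRA. Among all genes whose brightest probe was detected on an eSLC array, N7 met the criterion for 2.93%, and among single detected probes for 2.64%. No other line met it for any of the 8 genes, where the share over all genes was 0.472% for I2, 0.166% for I9, 0.533% for N2, 1.64% for P1 and 0.262% for P4. N7 and N2 share the nuclear transfer origin, and for GATA4, HNF4A, PDGFRA and RSPO3 N2 was within the range of the IVP and PA lines or below it. N7 lay on slide 1 with I2 and I9, which read lower for these genes. N7 is 1 array of 1 line, so line and array cannot be told apart, and the cause of its levels was not tested.

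**Figure D2:**
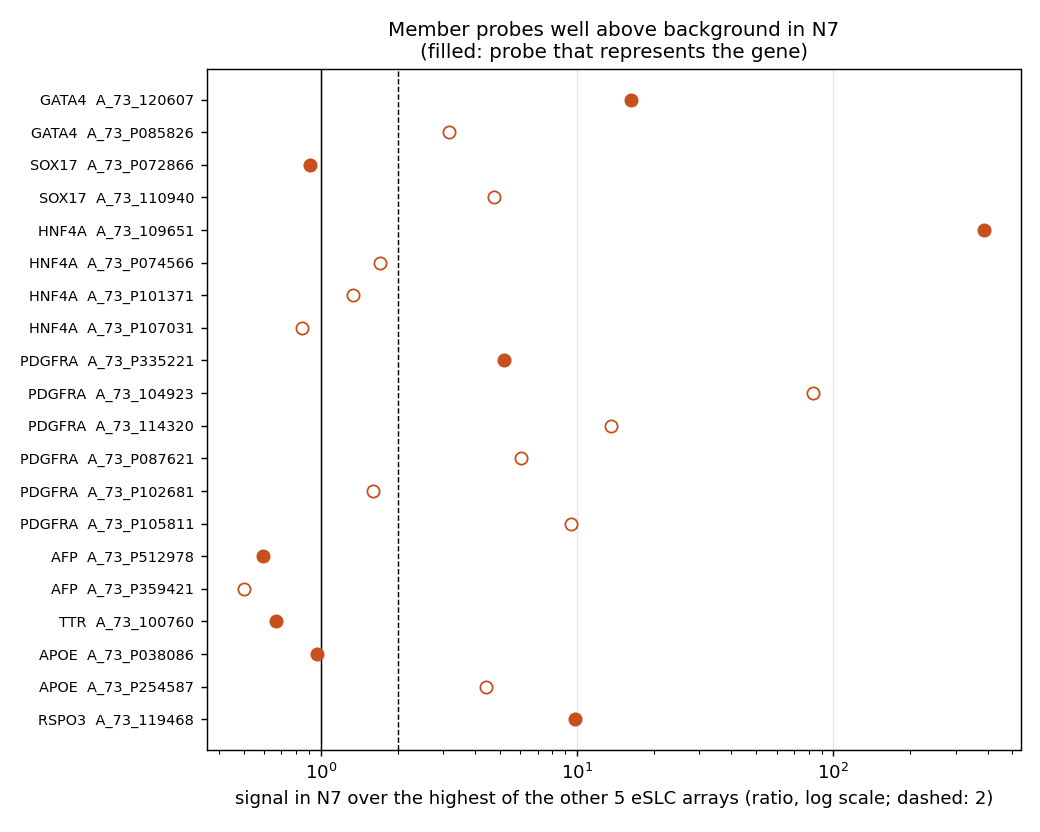
Ratio of the signal in N7 to the highest of the other 5 eSLC arrays (log scale) for the 20 marker probes detected in N7. Filled points are probes that represent a gene, the solid line is equality and the dashed line is 2-fold. All 6 PDGFRA probes, both GATA4 probes and the RSPO3 probe lie to the right of equality, whereas the AFP and TTR probes lie to the left.

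The origins did not differ in the test. Between NT- and IVP-eSLCs 0 of the 8 genes were called by limma and 0 had an unadjusted p under 0.05, with 306 such genes among all tested and 0.0% called. Between PA- and IVP-eSLCs 0 were called and 1, APOE, had an unadjusted p under 0.05 in limma, with 568 such genes among all tested and 0.0% called. The methods' t-test also called 0 in both comparisons after adjustment. HNF4A had the largest difference between NT- and IVP-eSLCs, 4.71 (SE 2.56, adjusted p = 1), since its NT value averages 9022 in N7 with 20.3 in N2. Without N2 it was called, at 9.11 (adjusted p = 0.00517), with the NT condition then resting on N7 alone and assumed to vary like the other conditions.

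**Figure D3:**
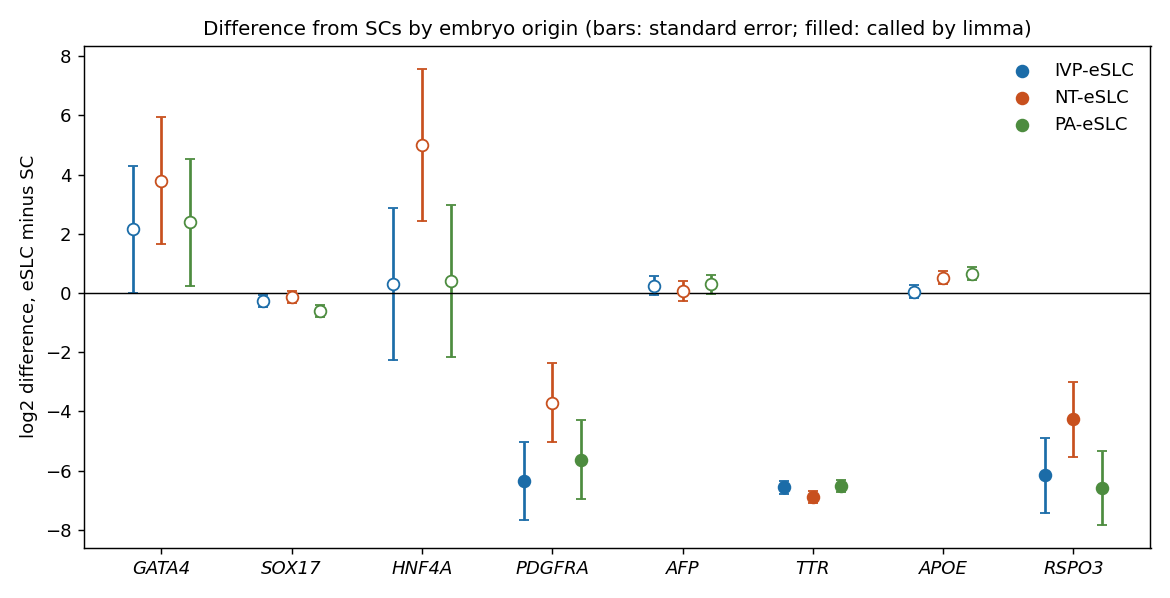
log2 difference from SCs of each marker by embryo origin, from the limma fit over all 8 arrays (bars are the standard error; filled points were called). TTR is low in all 3 origins with short bars, PDGFRA and RSPO3 are low with long bars, and the NT values of GATA4 (3.79) and HNF4A (5.01) are the highest and have bars of 2.14 and 2.56.

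Other genes of the hypoblast program were examined by list. The calls of each list below are to be read beside the 19.7% of all genes called higher and 15.7% called lower. Counts of genes with N7 at least 2-fold above every other eSLC line are to be read beside 2.93% of all detected genes. Of the 12 hypoblast transcription factors listed, 7 could be tested, and 5 were called higher and 0 lower in eSLCs. SALL4 rose by 6.30 (SE 0.220, adjusted p = 1.27e-05), FOXA3 by 3.62 (SE 0.281, adjusted p = 0.000239) and GATA5, a relative of GATA4, by 2.95 (SE 0.679, adjusted p = 0.0152). These genes are not particular to hypoblast, and SALL4 is also a pluripotency factor. N7 exceeded every other eSLC line at least 2-fold for 3 of the 9 detected genes of this list. GATA5 and FOXA3 did not share the N7 excess of GATA4. N7 was within the range of the other lines for GATA5 (82.7) and the lowest line for FOXA3 (3235).

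Of the FGF, PDGF and nodal genes, 12 were tested, of which 1 was called higher and 4 lower. PDGFA, a ligand of PDGFRA, rose by 2.72 (SE 0.164, adjusted p = 9.21e-05), at 3339 to 5899 in eSLCs with N7 the lowest, so that the ligand was high where the receptor was low. PDGFRB fell by 4.26 (SE 0.435, adjusted p = 0.000696), and N7 did not detect it, in contrast to PDGFRA. FGFR1, the main FGF receptor of fibroblasts and of early embryonic lineages, fell by 4.18 (SE 0.696, adjusted p = 0.00461). BMP4 fell by 2.89 (SE 0.391, adjusted p = 0.00208) on the brightest of its 3 probes, and its other probes are not given here. The study, by contrast, reported BMP4 as up-regulated in eSLCs, with array and real-time PCR data. SPRY2, a feedback inhibitor induced by FGF signaling, fell by 2.03 (SE 0.278, adjusted p = 0.00219).

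Among basement membrane and uptake genes, 11 were tested, with 2 called higher and 5 lower. AMN and DAB2, which take part in endocytic uptake by yolk sac endoderm, rose by 6.39 (SE 0.517, adjusted p = 0.000284) and 2.65 (SE 0.171, adjusted p = 0.000123). CUBN, the receptor that AMN carries to the surface, fell by 3.72 (SE 0.175, adjusted p = 3.52e-05). The matrix genes NID1, SPARC and COL4A1 had differences of -6.26, -4.98 and -2.20 (adjusted p = 0.0295, 0.00145 and 0.0198), with the SCs highest and N7 next, as for PDGFRA. NID1 read 1988 in N7, 36.7, 9.09, 56.9 and 46.9 in I2, I9, P1 and P4, and 3709 and 5168 in SCs, and N2 did not detect it. N7 exceeded every other eSLC line at least 2-fold for 5 of 11 detected genes of this list, and the summed signal was 173591 in N7, 60895 to 81257 in the other lines and 240349 to 297743 in SCs.

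Secreted and lipid-carrying products of yolk sac endoderm gave 2 calls higher and 1 lower of 11 tested. FGG rose by 3.16 (SE 0.242, adjusted p = 0.000229) and TTPA by 2.02 (SE 0.430, adjusted p = 0.0114), and neither was brighter in N7 than in the other lines. RBP4, the retinol carrier that binds TTR, fell by 3.41 (SE 0.974, adjusted p = 0.0315), and unlike TTR it was high in N7, at 3120 against 168 to 449 in the other lines and 3287 and 4633 in SCs. N7 exceeded every other eSLC line at least 2-fold for 9 of the 17 detected genes of this list. The following examples were chosen after their values were seen. APOA1, the main protein of HDL, read 112600 in N7, 1097 to 6823 in the other lines and 5685 and 4892 in SCs. FETUB and AHSG, fetuins secreted by fetal liver, read 23690 and 5566 in N7, 676-fold and 95.9-fold above the next line, and neither was detected in SCs. TF, the iron carrier transferrin, read 460 in N7, 18.2-fold above the next line. FETUB was not in the test, since N2 did not detect it and no condition had it on both arrays.

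Receptors for R-spondins and APOE gave 1 call higher and 4 lower of 7 tested. LGR4, the R-spondin receptor, fell by 3.03 (SE 0.345, adjusted p = 0.00106), with N7 at 916, 251 to 404 in the other lines and 3503 and 3244 in SCs, the same order as RSPO3. RNF43, a WNT receptor ligase that R-spondins inhibit, rose by 1.47 (SE 0.253, adjusted p = 0.00521). The APOE receptor VLDLR fell by 3.45 (SE 0.338, adjusted p = 0.000605), and RSPO2 fell by 2.33 (SE 0.461, adjusted p = 0.00864).

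In the other marker lists, N7 met the 2-fold criterion for 0 of 9 detected trophectoderm genes, 0 of 8 housekeeping genes and 0 of 4 mesoderm and definitive endoderm genes. With 2.93% of all detected genes meeting it, lists this short can give 0 without differing from all genes. In the last list 3 of 7 genes were detected on no array. The criterion was met by 1 of 10 fibroblast genes, LUM, and by 1 of 7 epiblast genes, POU5F1. POU5F1 read 898 in N7 and 30.7 to 101 in the other lines (both genes were named after the values were seen). Housekeeping genes had a median difference of 0.31 between eSLCs and SCs with none of 8 called by limma, and their summed signal was lowest in N7, at 524049 against 694118 to 1173320 in the other lines. Mesoderm and definitive endoderm genes gave 2 calls higher and 0 lower of 4, and epiblast genes 1 higher and 2 lower of 5. ACTB, a bright part of the housekeeping sum, read 120651 to 177821 in the eSLC lines of slide 1 and 251892 to 348221 in those of slide 2. KRT8 and KRT18, bright parts of the trophectoderm sum, split by slide in the same way. KRT8 read 135062 to 198889 on slide 1 and 320462 to 378620 on slide 2, and KRT18 130603 to 190866 and 313886 to 389557. CDX2 and GATA3 overlapped between the slides. N7 was the lowest line for GATA3, TFAP2A, KRT8, KRT18, PAG2, PTGS2, ACTB, GAPDH, RPL19 and YWHAZ. It was not the lowest for CDX2, GATA2, TFAP2C, PPIA, HPRT1, SDHA or TBP. N7 thus had the lowest summed trophectoderm and housekeeping signal of the eSLC lines, together with the highest signals of GATA4, HNF4A, PDGFRA and RSPO3. The part of either in the other was not tested, nor was the part of the slide in these sums.

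**Figure D4:**
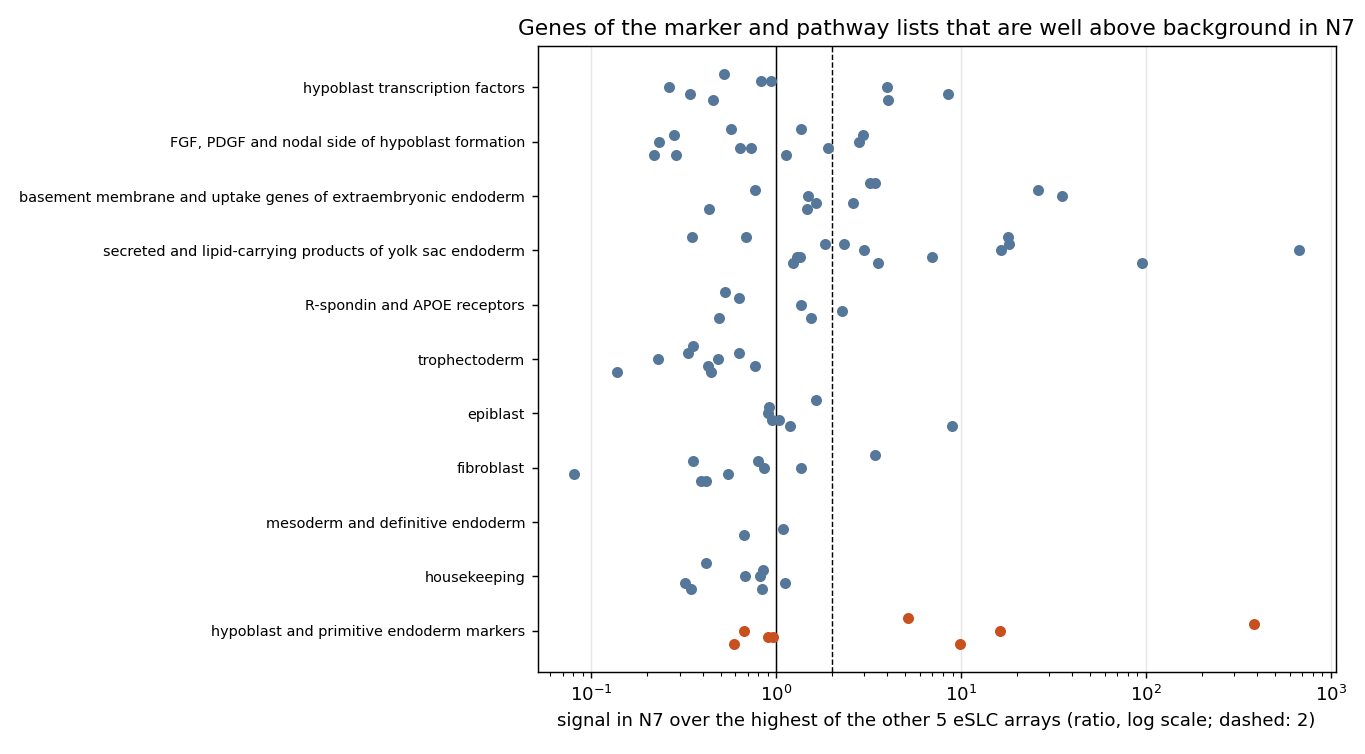
Ratio of the signal in N7 to the highest of the other 5 eSLC arrays (log scale) for each gene of the lists that was detected in N7, with the markers of this report in orange; the solid line is equality and the dashed line is 2-fold. The yolk sac secreted products and basement membrane genes reach ratios of 676 and 35.0, while all trophectoderm genes lie below equality.

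Genes with the pattern most like each marker over the 8 arrays were taken from 10206 genes by the root mean square difference of centred log2 signals. For PDGFRA the nearest gene was RSPO3, at 0.56, followed by SPARC (0.67) and HERC5 (0.70), and for RSPO3 they were SCHIP1 (0.53), PDGFRA (0.56) and TSPAN5 (0.61). GATA4 was nearest to LOC538060 (0.30), AKR1C3 (0.54) and TEX12 (0.59), each with its highest signal in N7. TTR was nearest to LHFPL6 (0.27), LY96 (0.37) and DOCK10 (0.37), APOE to TOB1, OCEL1 and GLMP (0.10 to 0.13), SOX17 to SLU7 and ADNP (0.12 and 0.14) and AFP to LOC786914, SREBF2 and DPF1 (0.10 to 0.13). HNF4A was detected on too few arrays for this comparison. These values describe the same 8 arrays and carry no test.

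The deposited normalized values gave another picture for some of the representative probes. For GATA4, SOX17, PDGFRA, AFP and TTR the representative probe belongs to a set of 10166 probes. In this set the deposited value was 1.736 times the processed signal column, within 3%, in 7 of the 8 scanner files. As a set, these deposited values departed from the background-subtracted scanner signal. The Spearman correlation was 0.811 to 0.882 per array, against 0.989 to 0.996 for the other probes. For GATA4 the deposited values were 427, 429, 276, 229, 44.5 and 45.1 in I2, I9, N2, N7, P1 and P4, and 55.3 and 53.2 in SCs, so that N7 did not stand out there. Its second probe, outside this set, did, with 308 in N7 and 3.60 to 33.1 on the other eSLC arrays. The AFP values were 2346 and 2244 in N2 and N7 and 40.9 to 61.4 elsewhere. For SOX17 they were 211 in I2 and 43.3 in SC P5 on both probes alike, although the scanner signals of the probes differed. Between the SC arrays these deposited values were nearly equal, with a median absolute log2 difference of 0.000349 against 0.235 for the scanner signals. It was 0.218 against 0.324 between the IVP arrays, 0.195 against 0.446 between the NT arrays and 0.331 against 0.330 between the PA arrays. TTR and the SC side of PDGFRA were alike in both sources, and HNF4A, APOE and RSPO3 lay outside the set. For the representative PDGFRA probe the deposited values were 274 in N7, 591 in P1 and 577 in P4, so that N7 was not the highest eSLC line there. On the other PDGFRA probes, all outside this set, N7 was the highest eSLC line in the deposited values as well. A_73_104923, for example, had 7706 in N7 and 4.88 to 29.5 on the other eSLC arrays. Probes of the same set also represent list genes named above, among them SALL4, FOXA3, PDGFA, SPARC, AMN, APOA1, RBP4, LGR4 and POU5F1. The deposited values of these genes are not given here, and their levels carry the same limit. The scanner signals were used throughout. The eSLC levels of the representative GATA4 and PDGFRA probes, the difference of SOX17 from SCs and any signal of AFP in NT-eSLCs depend on this choice.

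**Figure D5:**
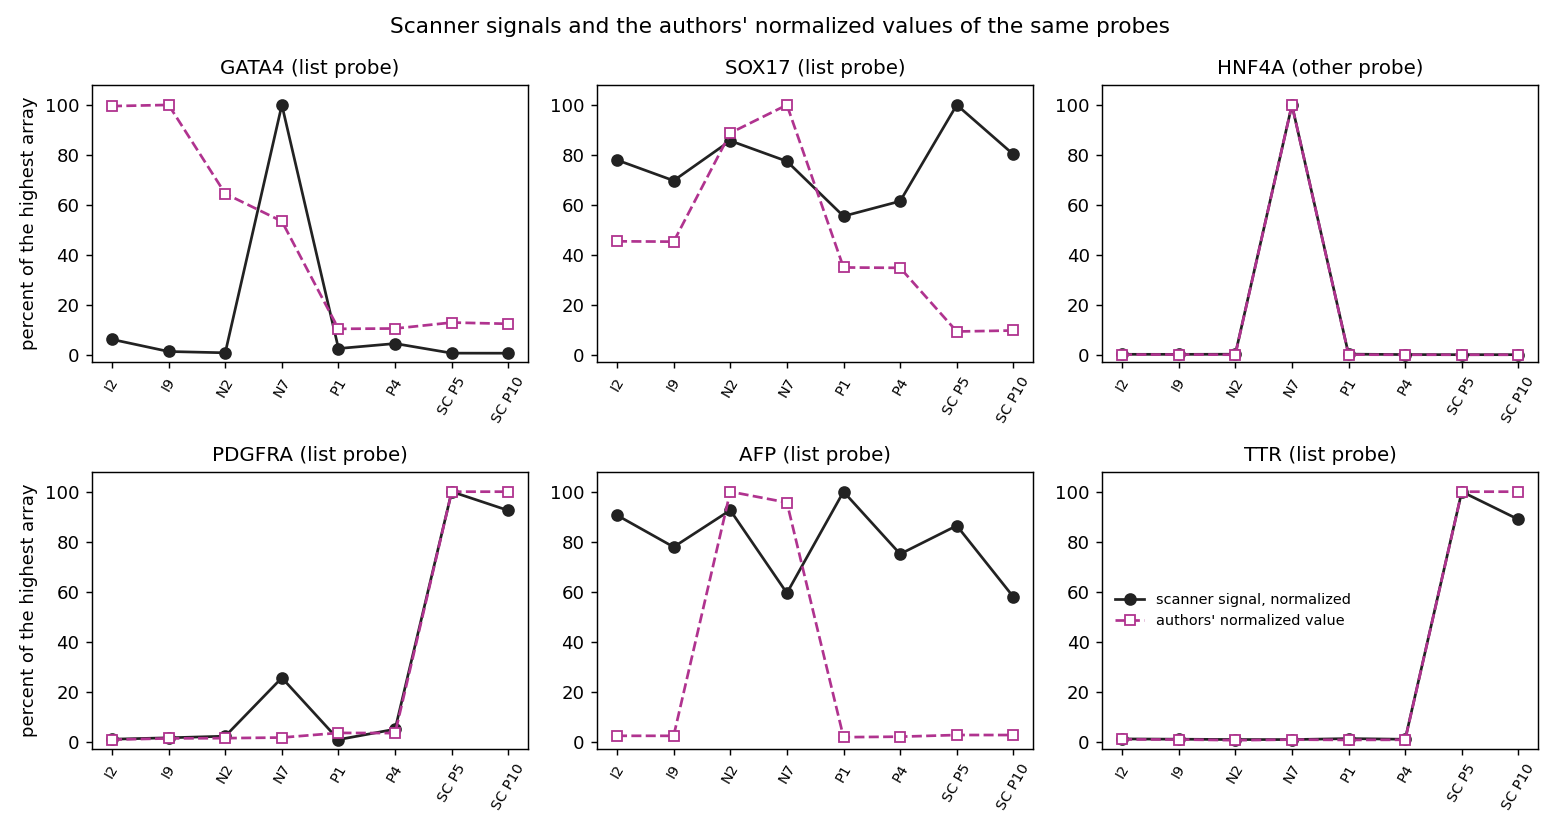
Normalized scanner signal (filled, solid line) and deposited normalized value (open squares, dashed line) of the probe that represents 6 markers on each array, each as a percent of its own highest array (a list probe is one of the 10166 probes above). The sources coincide for HNF4A and TTR, and they differ for GATA4, SOX17 and AFP, and for PDGFRA in N7.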

How the data were processed

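Total RNA was labelled with Cy3 and hybridized to Agilent bovine 44K arrays, and the authors quantified the scans with Feature Extraction and normalized them with GeneSpring GX. The deposited scanner files hold linear intensity values with no normalization between arrays, and the deposited series matrix holds linear intensity values after a normalization not detailed in the sources used here. In 6 of the 8 scanner files the processed signal did not follow the other columns (Spearman 0.00465 to 0.00978 with the background-subtracted signal for 33487 probes), so the background-subtracted signal was used. Control spots and 1 to 11 outlier spots per array were left out, spots of 1 probe were averaged, and signals were expressed per array relative to the 75th percentile (set to 1000), with log2 taken after a floor of 13.3. Probes were named through RefSeq accessions (26743 of 43653 probes). A gene was tested if well above background on every array of a condition. limma version 3.58.1 (R version 4.3.3) fitted a mean per condition and was tested on simulated data. Figures used matplotlib version 3.10.9 (Python version 3.11.15). The named genes are all markers and, from 5 lists, at most 4 called genes per direction with the largest differences whose arrays do not overlap. The markers, lists and tests were chosen with earlier results of these data known. Probe positions and sequences were not used here, and some genes of the lists are not reported here. Signal over background limits the precision, with the lowest detected signals 75.3 to 136 times below the 75th percentile. Alternatives covered other signal columns, scaling, probe choice, filters, the slide, the methods' t-test and leaving out arrays.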

Additional observations from a re-analysis of the deposited data

Results flagged for a closer look

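An array that stood far from the other 5 of the 6 eSLC arrays was sought with Dixon's ratio, the gap from the extreme array to its nearest neighbour over the whole range of log2 signals. It was computed for 42 probes and genes, of which 14 passed the critical value, and chance passes about 1 in 20. The array was N7 in 13 of these cases and lay on the high side. The ratio was 1 by construction where every other array was at the floor, and the chance rate does not apply there. This was the case for GATA4 probe A_73_P085826, HNF4A probe A_73_P101371 and PDGFRA probes A_73_104923, A_73_114320, A_73_P087621, A_73_P102681 and A_73_P105811. These include 5 probes of 1 gene, and the HNF4A probe was only slightly above the floor, at 17.8. The ratio was 0.913 for HNF4A probe A_73_109651 and 0.662 for the RSPO3 probe. Among genes of the lists it was 0.690 for BMP4, 0.710 for NID1, 0.664 for RBP4 and 0.631 for LGR4 in N7, and 1 for RSPO2 in P1, the only eSLC array that detected RSPO2. The representative probes of GATA4 and PDGFRA did not pass, since I2 and P4, respectively, were also above the other lines.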

How the results depend on the processing

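The 48 differences of the markers were recomputed under up to 21 alternative settings (978 values, since some settings gave no value for a gene). TTR kept its direction and call against SCs in every setting. Where neither value was called, 56 values changed sign. Another 5 changed sign with a call on one side. With the series matrix values SOX17 was 2.49 higher in eSLCs than in SCs, 3.13 in NT-eSLCs and 2.42 in PA-eSLCs, and AFP was 5.56 higher in NT- than in IVP-eSLCs, all called there and not with the scanner signals. With the processed signal RSPO3, called lower in IVP-eSLCs than in SCs, was 0.69 higher and not called (limma, adjusted p = 0.894). In 6 of the 8 scanner files that column did not follow the background-subtracted signal for 33487 probes, the RSPO3 probe among them. Values and counts from the processed signal are therefore no check on the calls. Genes called against SCs numbered 3 for all eSLCs, 3 for IVP-, 2 for NT- and 3 for PA-eSLCs. With the processed signal, and with both SC arrays as 1 sample, this was 1 for each of the 4. With the series matrix it was 5 for all eSLCs and 6 for NT-eSLCs, and 1 gene was called between NT- and IVP-eSLCs. For NT-eSLCs it was 1 with detection required on all 8 arrays, without a filter, with only the conditions compared in the fit and with the methods' t-test, which also gave 1 for PA-eSLCs. Leaving out 1 array at a time gave 1 to 5 for all eSLCs, 1 to 3 for each origin against SCs, 0 to 1 between NT- and IVP-eSLCs and 0 between PA- and IVP-eSLCs. The cause of these changes was not tested. Over all genes, the processed signal, with the limit given above, called 272 higher and 174 lower in eSLCs against SCs, where 2155 and 1719 were called. Quantile normalization moved the median of all genes from 0.23 to 0.12 on the log2 scale. Background correction by normexp on the mean signal was not run because the scanner files carry no such column, and normexp on the median signal, chosen after seeing the data, took its place. No paired analysis was possible because the labels give every sample the same replicate number and so pair no arrays. The slide was fitted as a block instead, and among the markers it changed only the call of PDGFRA in PA-eSLCs.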
